A study of Rattus norvegicus with 20 samples.

Results

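The 4 genes described here encode enzymes of oxidative stress defence in the rat. They are Hmox1 (ENSRNOG00000014117), Nqo1 (ENSRNOG00000012772), Gclc (ENSRNOG00000006302) and Gclm (ENSRNOG00000013409), taken by these Ensembl identifiers from a count table of 30560 genes, of which 14034 passed the filter on low counts and were tested. All 4 passed it. The symbols came with the identifiers and were not checked against an annotation, because the tables used here pair no Ensembl identifier with a symbol.

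RNA-seq libraries were made from mesenchymal stromal cells (MSCs) that were plated directly from the bone marrow of female Wistar rats, 1 rat per batch, onto gelatin-coated silicone with an elastic modulus of 2 kPa (soft) or 100 kPa (stiff). MSCs kept on 1 surface for 1, 3 or 5 weeks gave the groups 1w2, 1w100, 3w2, 3w100, 5w2 and 5w100. In the groups 3w2→2w100 and 3w100→2w2, MSCs were primed for 3 weeks on the first surface and moved to the other for 2 weeks, which tests whether expression follows the priming surface or the current one. At 5 weeks, 5w2 and 3w2→2w100 are called soft-primed, and 5w100 and 3w100→2w2 stiff-primed. The groups 1w2, 1w100, 3w2 and 3w100 have 3 libraries each and the 4 groups at 5 weeks have 2 each, 20 in all, with 16127907 to 24139128 counts per library. All groups shared the α-MEM medium with fetal bovine serum and antibiotics, the weekly trypsin passage and the enrichment with CD54 and CD90 beads. No gene was altered, and the age of the rats is not given in the sources used here. The methods of the study describe biological replicates as MSCs of different rats, but no source used here says whether a replicate number marks the same rat in different groups. Marker genes of MSCs, blood cells and other marrow cells could not be looked up, since no symbols were paired with identifiers, so the cell type was not checked. In these bulk libraries a lower level in all cells and a smaller share of cells that express a gene cannot be told apart.

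Hmox1 encodes heme oxygenase 1, which breaks heme down to biliverdin, carbon monoxide and iron. Nqo1 encodes NAD(P)H quinone dehydrogenase 1, which reduces quinones without forming radicals. Gclc and Gclm encode the catalytic and the modifier subunit of glutamate-cysteine ligase, the rate-limiting enzyme of glutathione synthesis. All 4 are classic targets of the transcription factor NRF2, which is held back and marked for degradation by KEAP1 in unstressed cells and which, once released by oxidants or electrophiles, binds antioxidant response elements near its target genes. In MSCs these enzymes are known for limiting damage by reactive oxygen species during expansion in culture. Other NRF2 regulators and target genes that had been listed for comparison could not be matched to the table for the same lack of symbols, and no value is given for them.

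Because the antioxidant response element is the textbook link between these genes, the 250 bases upstream of the annotated start are shown for the 3 members that matched the RefSeq promoter table (GRCr8), which is a later build than the mRatBN7.2 to which the reads were mapped. Hmox1 was not among them. Sequences read 5′ to 3′ on the gene's strand, and capitals mark matches, on either strand, to the core of the antioxidant response element, TGACNNNGC, or to the TATA box, TATAAA.
Nqo1, chr19:52220268-52220517 (minus strand): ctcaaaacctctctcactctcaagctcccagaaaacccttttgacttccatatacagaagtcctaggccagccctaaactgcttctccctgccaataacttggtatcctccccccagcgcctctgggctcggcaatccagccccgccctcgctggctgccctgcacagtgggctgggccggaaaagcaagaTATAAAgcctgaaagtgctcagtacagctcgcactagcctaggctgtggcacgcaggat
Gclc, chr8:87510226-87510475 (plus strand): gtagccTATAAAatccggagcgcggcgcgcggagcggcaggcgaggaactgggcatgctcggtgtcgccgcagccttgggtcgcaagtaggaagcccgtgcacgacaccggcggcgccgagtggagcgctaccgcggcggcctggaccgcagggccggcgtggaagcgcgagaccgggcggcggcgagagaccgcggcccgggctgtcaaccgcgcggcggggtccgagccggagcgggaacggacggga
Gclm, chr2:213031885-213032134 (plus strand): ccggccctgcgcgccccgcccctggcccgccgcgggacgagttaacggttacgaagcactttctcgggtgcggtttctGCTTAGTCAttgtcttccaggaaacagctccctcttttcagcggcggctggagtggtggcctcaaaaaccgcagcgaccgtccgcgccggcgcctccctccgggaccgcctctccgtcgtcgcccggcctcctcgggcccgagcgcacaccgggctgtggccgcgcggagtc
Gclm held the only match to TGACNNNGC, read as TGACTAAGC on the opposite strand, between 172 and 164 bases upstream of the start. Of 33469 rat promoters of this length, 10.1% held such a match. Nqo1 held TATAAA between 59 and 54 bases upstream and Gclc between 244 and 239 bases upstream, against 12.9% of promoters with at least 1 match. A match describes these letters only, and elements outside these windows were not searched.

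Counts per library were 1971 to 21194 for Hmox1, 5115 to 28230 for Nqo1, 1091 to 1940 for Gclc and 203 to 559 for Gclm. Levels below are in CPM (counts relative to the library total, scaled with TMM factors), and they are compared between libraries of the same gene only, since no transcript lengths of the build were at hand. The highest library exceeded the lowest 10.1-fold for Hmox1, 6.05-fold for Nqo1, 2.16-fold for Gclm and 1.59-fold for Gclc. The 2 stress enzymes with wide ranges, Hmox1 and Nqo1, and the 2 ligase subunits with narrow ranges are described in turn.

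**Figure D1:**
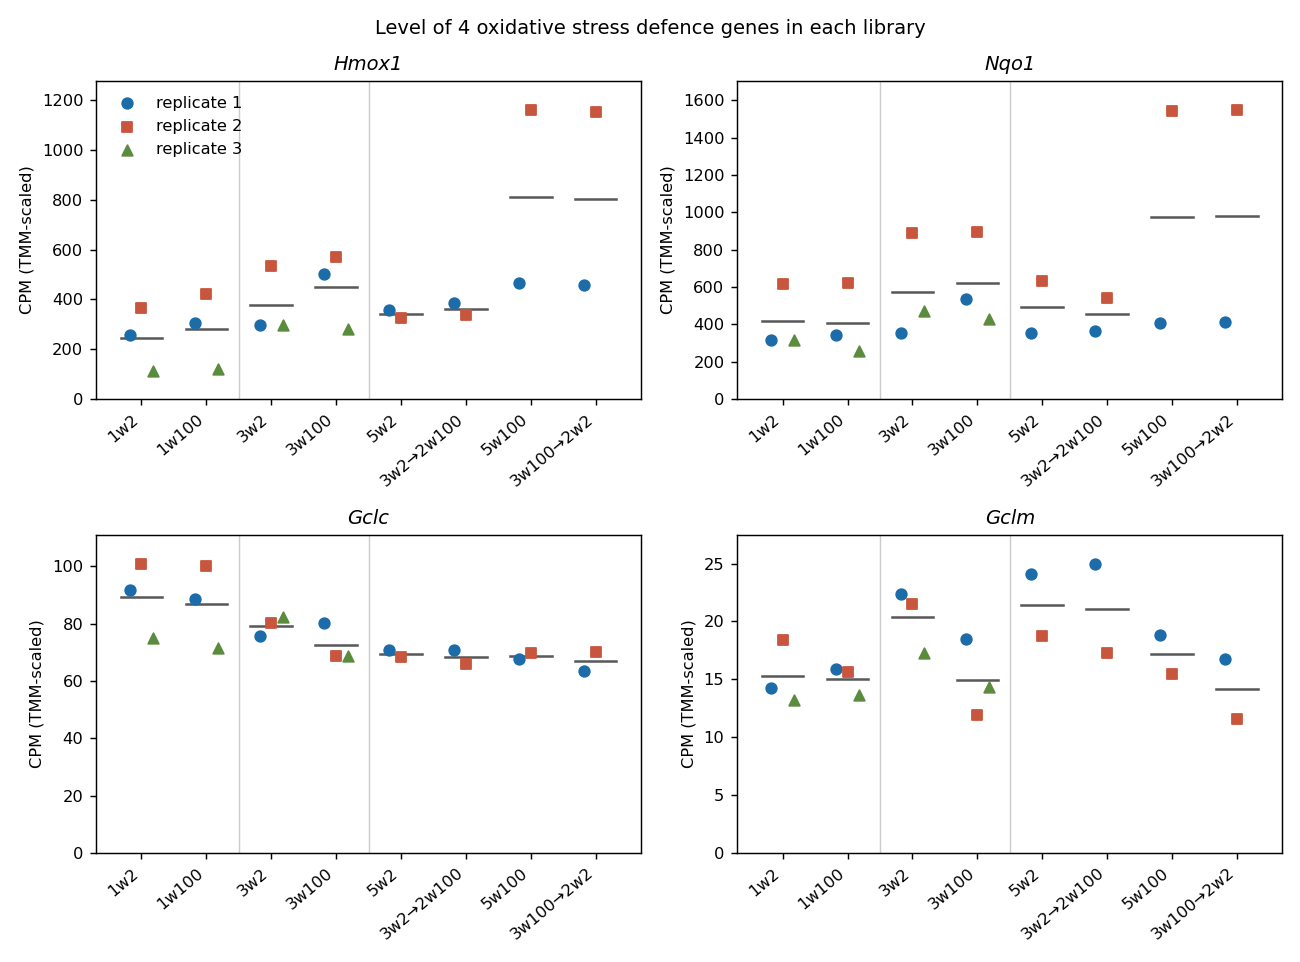
Level of each gene (CPM, y axis from 0) in each of the 20 libraries, by group on the x axis, with colour and shape for the replicate number and a grey bar for the group mean; thin vertical lines separate 1, 3 and 5 weeks. Replicate 2 of 5w100 and of 3w100→2w2 stands above all other libraries for Hmox1 (1159.8 and 1152 CPM) and Nqo1 (1545 and 1549 CPM), while Gclc lies between 63.4 and 100.9 CPM throughout.

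Hmox1 had its lowest group means at 1 week and its highest levels in 2 of the 4 stiff-primed libraries at 5 weeks. By replicate number 1, 2 and 3 it measured 258, 366 and 115 CPM in 1w2 and 307, 421 and 121 CPM in 1w100. At 3 weeks it measured 295, 534 and 299 CPM in 3w2 and 501, 572 and 281 CPM in 3w100. Replicate 3 was the lowest or close to the lowest in these groups, and soft and stiff overlapped at both times. At 5 weeks replicates 1 and 2 measured 358 and 325 CPM in 5w2, 385 and 338 CPM in 3w2→2w100, 465 and 1159.8 CPM in 5w100, and 456 and 1152 CPM in 3w100→2w2. Every soft-primed library therefore lay below every stiff-primed one, whichever surface the cells were on when harvested.

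Ordered by mean, Hmox1 ran from 5w100 (812 ± 491 CPM, SD, n = 2) and 3w100→2w2 (804 ± 492, n = 2) through 3w100 (451 ± 152, n = 3), 3w2 (376 ± 137, n = 3), 3w2→2w100 (361 ± 33.0, n = 2) and 5w2 (342 ± 23.3, n = 2) to 1w100 (283 ± 151, n = 3) and 1w2 (246 ± 126, n = 3). The libraries of every neighbouring pair in this order overlapped. The 2 libraries of each stiff-primed 5-week group stood far apart, which gave these groups the largest SDs.

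Nqo1 showed a similar order, with replicate 2 the highest library in each group. It measured 316, 616 and 318 CPM in 1w2 and 343, 622 and 256 CPM in 1w100. At 3 weeks it measured 356, 891 and 472 CPM in 3w2 and 535, 893 and 429.9 CPM in 3w100. Replicate 2 was near the same level on both surfaces at each of these times. At 5 weeks replicates 1 and 2 measured 356 and 632 CPM in 5w2, 365 and 543 CPM in 3w2→2w100, 409 and 1545 CPM in 5w100, and 412 and 1549 CPM in 3w100→2w2. Soft-primed and stiff-primed libraries of Nqo1 overlapped, since replicate 2 of the soft-primed cells lay above replicate 1 of the stiff-primed cells.

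By mean, Nqo1 ran from 3w100→2w2 (980.5 ± 803 CPM, SD, n = 2) and 5w100 (977 ± 803, n = 2) through 3w100 (619 ± 243, n = 3), 3w2 (573 ± 281, n = 3), 5w2 (494 ± 195, n = 2) and 3w2→2w100 (454 ± 126, n = 2) to 1w2 (417 ± 172, n = 3) and 1w100 (407 ± 191, n = 3). Here too each neighbouring pair overlapped.

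The first question of the design was whether soft and stiff surfaces differed at a given time. Neither Hmox1 nor Nqo1 was called at 1, 3 or 5 weeks by edgeR, although the Hmox1 libraries did not overlap at 5 weeks. For 1w2 against 1w100 the log2 fold change (first group over second, with its SE) was -0.20 ± 0.51 for Hmox1 and 0.035 ± 0.56 for Nqo1, each with an adjusted p of 1 in edgeR's quasi-likelihood test. For 3w2 against 3w100 it was -0.26 ± 0.51 (adjusted p = 0.951, edgeR) and -0.11 ± 0.56 (adjusted p = 0.985, edgeR). For 5w2 against 5w100 it was -1.25 ± 0.63 (adjusted p = 0.366, edgeR) and -0.98 ± 0.70 (adjusted p = 0.533, edgeR). With 95% intervals of -2.60 to 0.097 for Hmox1 and -2.47 to 0.50 for Nqo1 at 5 weeks, these libraries do not show that the surfaces gave equal levels. Hmox1 was 325 and 358 CPM in 5w2 against 465 and 1159.8 CPM in 5w100, a separation in this direction that 21.5% of tested genes had. DESeq2 with the replicate number as a block called Hmox1 (-1.13, adjusted p = 0.0338, against 7.12% of genes). With that block edgeR did not call it (-1.12, adjusted p = 0.118, against 3.55% of genes). The Hmox1 value was -0.45 without replicate 2 of 5w100 and -1.76 without replicate 1.

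None of the 4 members was called, at an adjusted p below 0.05, in any of these 3 contrasts by edgeR. The background of all tested genes called was 0% for 1w2 against 1w100, 0% for 3w2 against 3w100 and 0.264% for 5w2 against 5w100. In the same order, the unadjusted p was below 0.05 for 0, 1 (Gclm) and 0 members and for 54, 863 and 2167 genes. DESeq2 without the block called 0 members in each contrast and 0%, 0.0713% and 4.22% of genes. The change of the surface effect was also within the spread, with an interaction of -1.05 ± 0.81 for Hmox1 (adjusted p = 0.862, edgeR) and -1.02 ± 0.89 for Nqo1 (adjusted p = 0.888, edgeR) between 1 and 5 weeks.

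The switched groups asked whether the priming surface or the current one goes with expression at 5 weeks. Hmox1 was 325 to 385 CPM in the 4 soft-primed libraries and 456 to 1159.8 CPM in the 4 stiff-primed ones. These ranges do not overlap, as for 10.7% of all tested genes in this direction. The log2 fold change of soft-primed over stiff-primed was -1.20 ± 0.45 for Hmox1 (adjusted p = 0.10, edgeR) and -1.05 ± 0.49 for Nqo1 (adjusted p = 0.196, edgeR). edgeR called 0 of the 4 members and 9.75% of all genes, which is 1369 genes. With 1 library left out this was 393 without replicate 2 of 3w100→2w2, 409 without replicate 2 of 5w100, 724 and 782 without replicates 2 and 1 of 5w2, 812 without replicate 1 of 3w2→2w100 and 2164 without replicate 1 of 5w100. Unadjusted p-values were below 0.05 for 2 members, Hmox1 and Gclm, and for 3626 genes. The median absolute log2 fold change was 0.75 over the 4 members and 0.21 over all tested genes. That measure takes no account of spread, and Hmox1 and Nqo1 had pooled within-group SDs of 0.71 and 0.77 on the log2 scale, against a median of 0.23. DESeq2 called 1 member, Hmox1 (adjusted p = 0.0350), against 14.1% of genes. The replicate number as a block, although no source ties a number to a rat, brought the members called by edgeR to 3, against 16.4% of all genes. Their blocked log2 fold changes were -1.07 for Hmox1 (adjusted p = 0.0175, edgeR), -0.83 for Nqo1 (adjusted p = 0.0192, edgeR) and 0.45 for Gclm (adjusted p = 0.0431, edgeR).

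Most of the Hmox1 and Nqo1 difference lay in replicate 2. Soft-primed over stiff-primed, the replicate 1 ratios of Hmox1 were 0.770 (5w2 over 5w100) and 0.843 (3w2→2w100 over 3w100→2w2), and those of replicate 2 were 0.280 and 0.293. For Nqo1 the ratios were 0.870 and 0.886 in replicate 1 and 0.409 and 0.351 in replicate 2. All 8 ratios were below 1, but in replicate 1 none was below 0.770. Without the 2 stiff-primed libraries numbered 2, the log2 fold change was -0.39 for Hmox1 and turned to 0.21 for Nqo1. That removal left number 2 in the soft-primed groups only. With all libraries numbered 2 left out, the log2 fold change was -0.31 for Hmox1 and -0.19 for Nqo1. Libraries of the same priming surface and number deviated together across genes (r = 0.760 for soft-primed and 0.802 for stiff-primed), and with each such pair summed to 1 library the adjusted p was 0.388 for Hmox1 and 0.480 for Nqo1 (edgeR), or 0.109 and 0.101 with the replicate block as well.

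**Figure D2:**
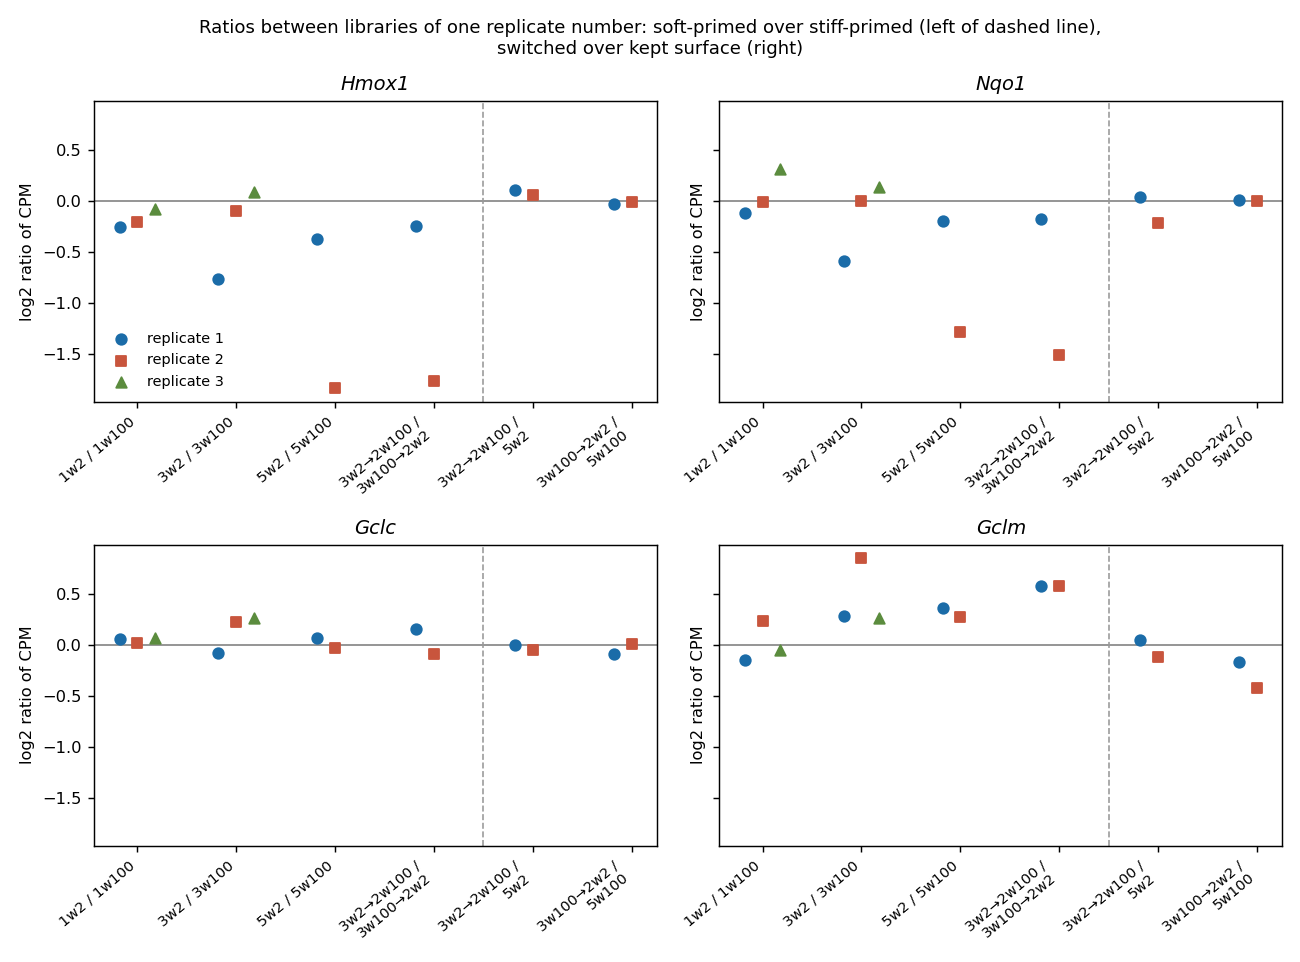
Log2 ratio of CPM between libraries of the same replicate number (colour and shape), with 4 soft-primed over stiff-primed ratios left of the dashed line and 2 switched over kept-surface ratios right of it. Replicate 2 lies lowest for Hmox1 (-1.83 and -1.77) and Nqo1 (-1.29 and -1.51) at 5 weeks. Gclc lies between -0.089 and 0.26, with 0.22 and 0.26 in replicates 2 and 3 of 3w2 over 3w100. Gclm is above 0 in the 7 soft-primed over stiff-primed ratios at 3 and 5 weeks. These ratios are not independent: at 5 weeks, libraries of one priming surface and number deviate together (r = 0.760 and 0.802). At 3 weeks the numbers did not meet the criterion for pairing.

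Within a replicate number and priming surface, Hmox1 and Nqo1 were close to each other on the kept and on the new surface. In stiff-primed cells, 3w100→2w2 over 5w100 was 0.982 and 0.994 for Hmox1 in replicates 1 and 2, and 1.01 and 1.00 for Nqo1. In soft-primed cells, 3w2→2w100 over 5w2 was 1.07 and 1.04 for Hmox1, and 1.03 and 0.859 for Nqo1. The high level in replicate 2 of stiff-primed cells was thus present in both of its libraries, which were on different surfaces at harvest. In a fit of the 8 libraries at 5 weeks with each pair of one priming surface and number as a block, currently soft over currently stiff was 0.962-fold for Hmox1 (95% interval 0.885 to 1.05), 1.03-fold for Nqo1 (0.942 to 1.12), 0.99-fold for Gclc (0.911 to 1.08) and 0.918-fold for Gclm (0.812 to 1.04). None of the 4 was called in it, with adjusted p from 0.775 to 0.978 (edgeR), against 0.145% of the 13112 genes tested in that fit. With all libraries and no block no member was called either, and edgeR called 0% of genes (114 at an unadjusted p below 0.05, none of them a member).

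The 4 contrasts that set a switched group against a kept one gave 0 called members in edgeR and in DESeq2, both without the block. For 3w2→2w100 against 5w100, both on stiff surfaces at harvest, the log2 fold change was -1.17 ± 0.63 for Hmox1 and -1.10 ± 0.70 for Nqo1, and 0.057% of all genes were called by edgeR and 3.12% by DESeq2. For 3w100→2w2 against 5w2, both on soft surfaces, it was 1.24 ± 0.63 for Hmox1 and 0.99 ± 0.70 for Nqo1, with 0.178% of genes called by edgeR and 3.17% by DESeq2. Among the members, Gclm alone had an unadjusted p below 0.05 there (-0.60 ± 0.25, adjusted p = 0.301, edgeR), as had 1900 of the 14034 tested genes. In that contrast DESeq2 with the block called Hmox1 (1.11, adjusted p = 0.0423, against 6.31% of genes). Without replicate 2 of the stiff-primed group the Hmox1 value was -0.36 in the first of these contrasts and 0.42 in the second. Against the group of the same priming surface, values lay between -0.28 and 0.081 for all members, and 0% of genes were called in each by either tool (52 and 87 genes at an unadjusted p below 0.05, no member among them).

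The replicate number itself went with Nqo1 more than the groups did. Groups accounted for 28.5% of the sum of squares of log2 CPM of Nqo1 and the replicate number added 60.5%, against medians of 52.5% and 11.9% over tested genes. For Hmox1 the shares were 52.1% and 33.9%, for Gclc 62.8% and 14.6%, and for Gclm 55.6% and 21.4%. Replicate 2 was the highest library of Nqo1 in 8 of 8 groups, which 1.62% of tested genes shared, and of Hmox1 in 6, Gclc in 4 and Gclm in 1. In a fit with the number as a term, added after the values were seen, replicate 2 exceeded replicate 1 by 1.13 ± 0.15 on the log2 scale for Nqo1 (adjusted p = 0.00116, edgeR), a 2.19-fold difference; 1 of the 4 members was called, against 9.31% of all genes. Hmox1 gave 0.53 ± 0.19 (adjusted p = 0.0941, edgeR; 0.0327, DESeq2), Gclc 0.029 ± 0.063 and Gclm -0.25 ± 0.098 (adjusted p = 0.121, edgeR). DESeq2 called 2 members, Hmox1 and Nqo1, against 12.2% of genes. Whether a number marks the same rat across groups is not given, and its part in the surface contrasts was not tested beyond the block.

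Replicate 3 was low for Hmox1 at 1 week, at 115 and 121 CPM. Replicate 3 against replicate 1 gave -0.80 ± 0.25 for Hmox1 (adjusted p = 0.134, edgeR; 0.0316, DESeq2), and edgeR called 0 members and 1.98% of genes (2 members and 2405 genes at an unadjusted p below 0.05). These 278 genes became 63 and 75 without replicate 3 of 1w2 and of 1w100, 116 without replicate 1 of 1w100, 133 without replicate 3 of 3w2, and 185 and 155 without replicate 1 of 5w100 and of 3w100→2w2. DESeq2 called 1 member, Hmox1, against 4.65% of genes. In the stiff-primed 5-week cells, replicate 2 exceeded replicate 1 by 1.32 and 1.34 on the log2 scale for Hmox1 in 5w100 and 3w100→2w2. In 2.52% of tested genes replicate 2 was at least as far above replicate 1 in both groups, genes lower in replicate 2 not being counted. For Nqo1 the values were 1.92 and 1.91, with 0.933% of genes. Against the same number in 3w100, replicate 2 of 5w100 was 2.03-fold for Hmox1 and 1.73-fold for Nqo1, while replicate 1 stood at 0.928 and 0.764. Pairing of numbers between 3 and 5 weeks was not checked.

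Hmox1 and Nqo1 varied together over the libraries. As a description over 20 libraries that share groups, numbers and processing, Pearson's r of log2 CPM was 0.849 and Spearman's rho 0.765. Without the 2 libraries farthest from the median of Hmox1, which are the stiff-primed replicates 2 at 5 weeks, r was 0.699 and rho 0.680. For deviations from the group means r was 0.81. Ranked among all tested genes by r, Nqo1 was number 26 for Hmox1, and Hmox1 was number 21 for Nqo1. The gene most like Hmox1 was ENSRNOG00000000091 (r = 0.931) and the gene most like Nqo1 was ENSRNOG00000011238 (r = 0.915). Over all libraries the 4 pairs of Hmox1 or Nqo1 with a ligase subunit had r between -0.26 and 0.0048, and Gclc with Gclm had 0.0087. For deviations from the group means, Hmox1 with Gclc had 0.80, Nqo1 with Gclc 0.45 and Gclc with Gclm 0.40, while Hmox1 with Gclm had 0.068 and Nqo1 with Gclm -0.37. In 1w2 and 1w100, replicate 2 was highest and replicate 3 lowest for both Hmox1 and Gclc. In 3w2, Hmox1 was highest in replicate 2 (534 CPM) but Gclc in replicate 3 (82.2 CPM). In 3w100, Hmox1 was highest in replicate 2 (572 CPM) but Gclc in replicate 1 (80.0 CPM). The 0.80 of Hmox1 with Gclc thus pools groups that differ in this respect. Over the 8 group means their r was -0.80. Without the stiff-primed replicates 2 at 5 weeks, Hmox1 with Gclm had 0.38 over the remaining 18 libraries.

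The ligase subunits varied less. Gclc measured 91.7, 100.9 and 74.8 CPM in replicates 1, 2 and 3 of 1w2 and 88.5, 100.0 and 71.6 CPM in 1w100. It measured 75.7, 80.1 and 82.2 CPM in 3w2 and 80.0, 68.8 and 68.7 CPM in 3w100. Soft and stiff overlapped at both times. At 5 weeks replicates 1 and 2 measured 70.7 and 68.3 CPM in 5w2, 70.6 and 66.0 CPM in 3w2→2w100, 67.5 and 69.7 CPM in 5w100, and 63.4 and 70.1 CPM in 3w100→2w2. The 8 libraries at 5 weeks span 63.4 to 70.7 CPM, below all 6 libraries at 1 week.

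Ordered by mean, Gclc ran from 1w2 (89.1 ± 13.2 CPM, SD, n = 3), 1w100 (86.7 ± 14.3, n = 3), 3w2 (79.3 ± 3.33, n = 3) and 3w100 (72.5 ± 6.51, n = 3) to 5w2 (69.5 ± 1.69, n = 2), 5w100 (68.6 ± 1.54, n = 2), 3w2→2w100 (68.3 ± 3.28, n = 2) and 3w100→2w2 (66.8 ± 4.72, n = 2). Neighbours overlapped in each step, and the order followed time in culture rather than surface. Soft against stiff gave a log2 fold change of 0.041 ± 0.12 at 1 week, 0.13 ± 0.12 at 3 weeks and 0.019 ± 0.15 at 5 weeks. Priming gave 0.026 ± 0.10, with a 95% interval from 0.873-fold to 1.19-fold.

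Gclm, the modifier subunit, had its 3 highest group means in the soft-primed groups at 3 and 5 weeks. It measured 14.3, 18.4 and 13.2 CPM in 1w2 and 15.9, 15.6 and 13.7 CPM in 1w100, with no common direction over the 3 numbers. It measured 22.4, 21.5 and 17.3 CPM in 3w2 and 18.5, 12 and 14.4 CPM in 3w100. Soft exceeded stiff in all 3 numbers at 3 weeks, by 1.21, 1.80 and 1.20 times, although replicate 3 of 3w2 lay below replicate 1 of 3w100. The numbers did not meet the planned criterion for pairing at 3 weeks (r = 0.084 for number 2), so these ratios may not compare cells of the same origin. At 5 weeks replicates 1 and 2 measured 24.1 and 18.7 CPM in 5w2, 25 and 17.2 CPM in 3w2→2w100, 18.8 and 15.5 CPM in 5w100, and 16.8 and 11.6 CPM in 3w100→2w2. Within a number, 5w2 exceeded 5w100 by 1.28 and 1.21 times and 3w2→2w100 exceeded 3w100→2w2 by 1.49 times in both, but the 4 soft-primed and 4 stiff-primed libraries overlapped between 17.2 and 18.8 CPM.

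By mean, Gclm ran from 5w2 (21.4 ± 3.82 CPM, SD, n = 2), 3w2→2w100 (21.1 ± 5.49, n = 2) and 3w2 (20.4 ± 2.76, n = 3) to 5w100 (17.2 ± 2.36, n = 2), 1w2 (15.3 ± 2.75, n = 3), 1w100 (15.1 ± 1.21, n = 3), 3w100 (14.9 ± 3.31, n = 3) and 3w100→2w2 (14.2 ± 3.70, n = 2), with overlap between all neighbours. The log2 fold change of soft over stiff was 0.021 ± 0.20 at 1 week, 0.45 ± 0.20 at 3 weeks (adjusted p = 0.806, edgeR) and 0.32 ± 0.25 at 5 weeks (adjusted p = 0.567, edgeR). For priming it was 0.45 ± 0.18 (adjusted p = 0.119, edgeR), 1.36-fold, with the blocked call given above, and 0.392 was the adjusted p with paired libraries summed (0.241 with the block). Without the 2 stiff-primed libraries numbered 2 the value was 0.26, and with all libraries numbered 2 left out it was 0.47.

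**Figure D3:**
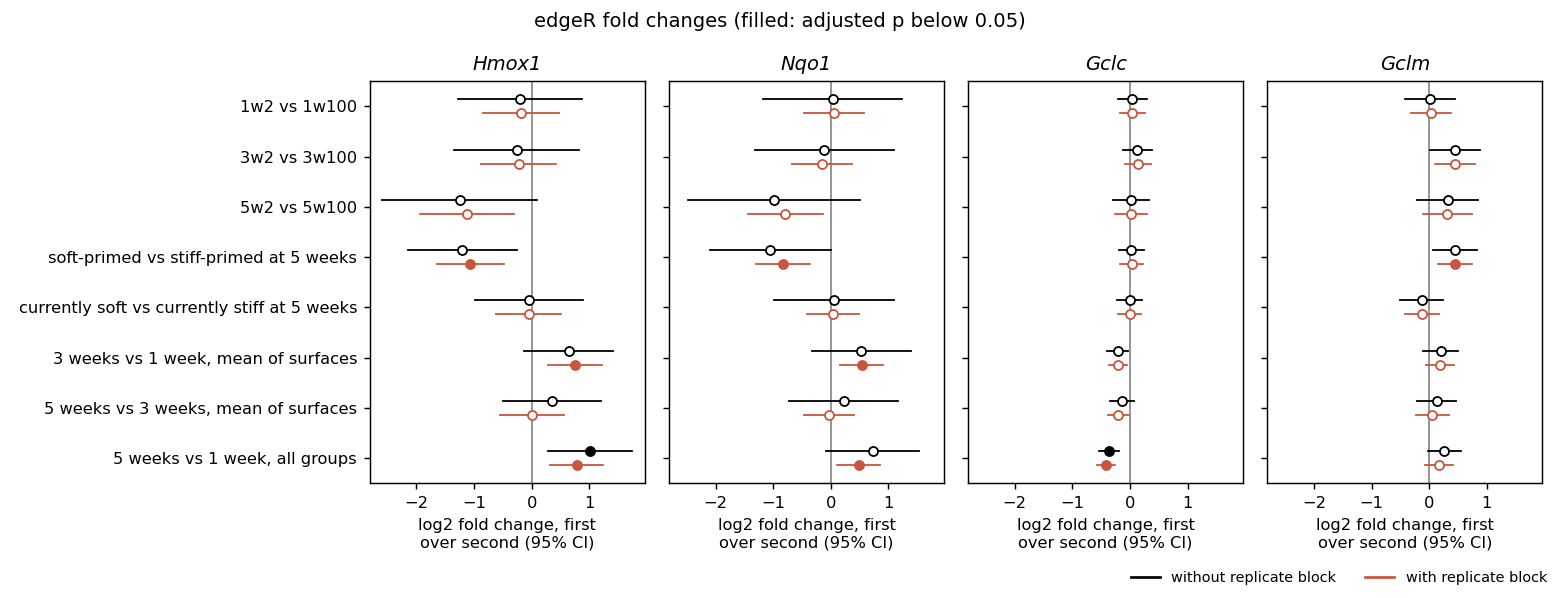
Log2 fold change, first group over second, for the 4 genes (columns) in 8 comparisons (rows), with 95% intervals from edgeR without the replicate block (black) and with it (red); a filled point has an adjusted p below 0.05. Without the block, filled points are only Hmox1 (1.01) and Gclc (-0.36) between 5 weeks and 1 week; with it, Hmox1 (-1.07), Nqo1 (-0.83) and Gclm (0.45) are filled for the priming surface, Hmox1 (0.76) and Nqo1 (0.53) between 3 weeks and 1 week, and Hmox1 (0.78), Nqo1 (0.48) and Gclc (-0.42) between 5 weeks and 1 week. No priming value keeps its call when paired libraries are summed, with or without the block.

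Since Gclc and Gclm form 1 enzyme, their count ratio within a library was compared, which needs no scaling between libraries. It reflects counts of genes of different length and is no molar ratio of the subunits. The ratio of Gclc to Gclm counts was 5.24 to 6.43 in the 6 libraries at 1 week (median 5.62) and 3.38 to 5.75 in the 6 at 3 weeks (median 4.54). At 5 weeks it was 2.82 to 3.83 in the 4 soft-primed libraries and 3.58 to 6.07 in the 4 stiff-primed ones, which overlap. Averaged on the log2 scale over surfaces within a number, its geometric mean was 5.78 at 1 week and 4.39 at 3 weeks. A two-sided exact permutation test of 3 against 3 values gave p = 0.1, the smallest this design allows. For 3w2 against 3w100 the geometric means were 3.91 and 4.92, with p = 0.2 in the same exact permutation test. Both comparisons were chosen after the values were seen.

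**Figure D4:**
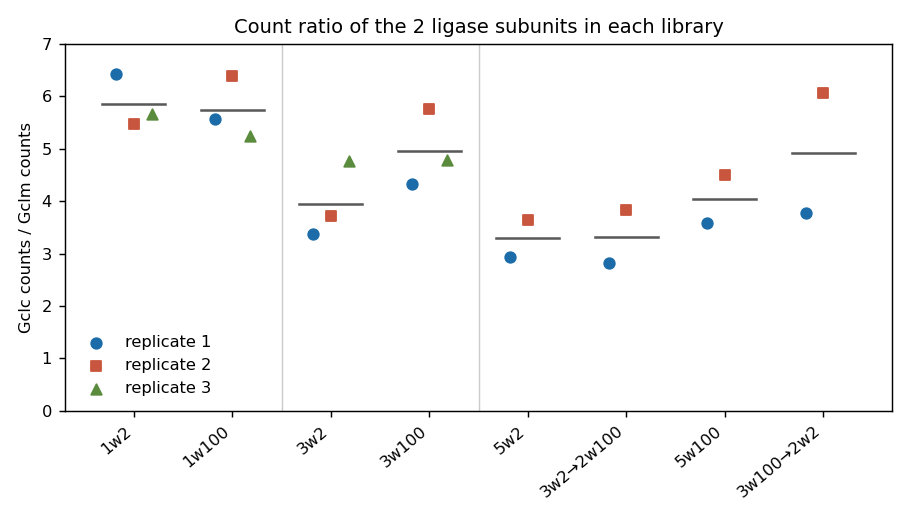
Ratio of Gclc counts to Gclm counts (y axis from 0) in each library by group, with colour and shape for the replicate number, grey bars for arithmetic group means and thin lines between 1, 3 and 5 weeks. The ratio lies between 5.24 and 6.43 at 1 week and between 2.82 and 3.83 in the 4 soft-primed libraries at 5 weeks.

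Time in culture, which goes together with passage number here, was the other axis of the design. From 1 to 3 weeks Hmox1 was higher in all 3 numbers on both surfaces, by 1.15, 1.46 and 2.60 times on soft and 1.63, 1.36 and 2.32 times on stiff. Nqo1 was also higher in all 6, by 1.13, 1.45 and 1.48 times on soft and 1.56, 1.44 and 1.68 times on stiff. These ratios match libraries by number, and pairing of numbers between 1 and 3 weeks was not checked. Averaged over surfaces the log2 fold change was 0.64 ± 0.36 for Hmox1 (adjusted p = 0.228, edgeR), 0.53 ± 0.40 for Nqo1 (adjusted p = 0.376, edgeR), -0.21 ± 0.085 for Gclc (adjusted p = 0.0899, edgeR) and 0.20 ± 0.14 for Gclm (adjusted p = 0.343, edgeR). edgeR called 0 of 4 members and 20.9% of all genes, 1 member (Gclc) had an unadjusted p below 0.05, as had 4709 genes, and DESeq2 called 0 members and 23.3% of genes. Once numbers were blocked, edgeR called 2 members, Hmox1 (0.76, adjusted p = 0.0206) and Nqo1 (0.53, adjusted p = 0.0345), against 26.9% of all genes. DESeq2 with the block called 3, these and Gclc (-0.21, adjusted p = 0.0341), against 27.5%. Gclc was called when replicate 3 of 1w2 (adjusted p = 0.0265, edgeR) or of 1w100 (adjusted p = 0.0208, edgeR) was left out.

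Taken on each surface alone, the step from 1 to 3 weeks gave 0 called members, while 8.03% of genes were called on soft and 8.41% on stiff. These 1127 and 1180 genes became 464, 537 and 604 on soft without replicate 1 of 1w2 and replicates 1 and 2 of 3w2, and 535 and 618 on stiff without replicate 1 of 1w100 and replicate 2 of 3w100. At an unadjusted p below 0.05 there were 0 members and 3131 genes on soft, and 1 member (Gclc, -0.26 ± 0.12) and 3179 genes on stiff. For Gclm the step was 0.42 ± 0.20 on soft (adjusted p = 0.246, edgeR) and -0.0094 ± 0.20 on stiff, and the difference between these steps was 0.42 ± 0.29 (adjusted p = 1.00, edgeR), with 0% of genes called for it. From 3 to 5 weeks on an unchanged surface, 0 members were called and 0.0285% of genes averaged over surfaces. None of the 4 passed an unadjusted p below 0.05 there, against 2042 genes, and DESeq2 called 0 members and 2.06% of genes.

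The 8 libraries at 5 weeks were also set against the 6 at 1 week, a contrast added after the values were seen. The 2 sides differ in replicate numbers, since replicate 3 is present at 1 week and in no group at 5 weeks. Time and number are thus partly mixed in the values without the block. Hmox1 was higher by 1.01 ± 0.34 on the log2 scale, 2.02-fold (adjusted p = 0.0284, edgeR), with 115 to 421 CPM at 1 week and 325 to 1159.8 CPM at 5 weeks, with overlap. In number 1, every 5-week library (358 to 465 CPM) lay above both 1-week libraries (258 and 307 CPM). In number 2 this held for the stiff-primed libraries (1152 and 1159.8 CPM). The soft-primed ones of number 2 (325 and 338 CPM) lay below both 1-week libraries (366 and 421 CPM). Gclc fell by 0.36 ± 0.079 on the log2 scale, to 0.777 of its 1-week level (adjusted p = 0.00200, edgeR), and its libraries did not overlap, which was so for 8.45% of tested genes in this direction. The gap was narrow, with 71.6 CPM in the lowest library at 1 week and 70.7 CPM in the highest at 5 weeks. These 2 of 4 members were called, against 41.1% of all genes. Nqo1 gave 0.73 ± 0.38 (adjusted p = 0.141, edgeR) and Gclm 0.26 ± 0.13 (adjusted p = 0.133, edgeR). With the block, edgeR called 3 members, Hmox1 (0.78, adjusted p = 0.0101), Nqo1 (0.48, adjusted p = 0.0369) and Gclc (-0.42, adjusted p = 0.000449), against 43.7% of genes.

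The Hmox1 call without the block lay near the threshold. Of the 14 libraries, left out one at a time, 6 ended it, with a value between 0.81 and 1.04 in these fits. The value was 0.85 without replicate 3 of 1w2 and 0.83 without replicate 3 of 1w100. The adjusted p of Hmox1 rose above 0.05 without replicate 1 of 1w2 (0.0525) or of 1w100 (0.0501), replicate 3 of 1w2 (0.0614) or of 1w100 (0.0598), replicate 2 of 5w100 (0.0699) or replicate 2 of 3w100→2w2 (0.0718), all by edgeR. Without both stiff-primed libraries numbered 2 the Hmox1 value was 0.60 (adjusted p = 0.162, edgeR), and with the paired libraries at 5 weeks summed it was 1.01 (adjusted p = 0.0627, edgeR). Gclc stayed at -0.37 with summed pairs (adjusted p = 0.0111, edgeR) and was called with each library left out in turn, but with all libraries numbered 2 left out it was -0.28 (adjusted p = 0.0868, edgeR).

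Within groups, Hmox1 and Nqo1 had a pooled SD of 0.71 and 0.77 on the log2 scale, wider than 88.7% and 90.9% of tested genes, against a median of 0.23. Gclm had 0.26 and Gclc 0.15, the latter wider than 28.0%. At the priming contrast this gave SEs of 0.45 for Hmox1 and 0.49 for Nqo1 but 0.10 for Gclc.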

How the data were processed

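Bulk RNA-seq of rat MSCs was available as 1 table of raw counts per Ensembl gene. According to the methods of the authors and the labels, adapters were trimmed with Trim Galore, reads were checked with FastQC, mapped to mRatBN7.2 with HISAT2 and counted with featureCounts, and the counts were deposited without normalization. The kit for the mRNA libraries kept strand. Tool versions, the strand setting of the counting and the treatment of multi-mapping reads were not given in the sources used here. Overlapping genes and near-identical copies therefore have uncertain counts. The table had 0 rows that name no gene and 0 columns of other samples. Accessibility data of the study were not analysed here.

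Surfaces, passages and replicate numbers were taken from the labels, which name passage 1, 3 or 5 rather than weeks. The methods give 1 passage per week, so time in culture and passage number cannot be told apart here. They also describe an initial expansion passage on the respective surface. The count model was edgeR 4.0.16 under R 4.3.3 (scaling by TMM, filterByExpr with a minimum count of 10 and total of 15, quasi-likelihood test in 1 model of 8 groups and 20 libraries, Benjamini-Hochberg over 14034 genes), and genes with an adjusted p below 0.05 were called. Log2 CPM used a prior count of 2. DESeq2 1.42.0 was an alternative, as were RLE factors, no filter, a mean of at least 10 counts, only the groups compared, the replicate number as a block, and each library left out. Where a group then kept 1 library, it was assumed to vary like the others. The contrast of 5 weeks with 1 week over all groups, the terms for replicate numbers, DESeq2 with the block, the sums over groups and the removal of libraries numbered 2 were added after the values were seen. The members and gene lists were chosen with earlier results of these data known. The rule for named genes took the 4 members, 8 lists of related genes and, per member, the 3 genes of highest r; without symbols the lists gave no gene, and of the 12 most alike genes only 2 identifiers are printed. Libraries of one group differed from each other by more than sampling noise in every pair. The test was checked on simulated counts with known changes.

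Replicate numbers were checked for pairing by correlating, across genes, the deviations of same-numbered libraries from their group means. At 1 week r was 0.626, 0.650 and 0.777, at 3 weeks 0.389, 0.084 and 0.465, and at 5 weeks 0.168 to 0.802 over the 6 pairs of groups, each of which gives 1 value only, since 2 libraries per group deviate equally from their mean. The planned criterion for pairing was every r above 0.1. The numbers met it at 1 week and not at 3 weeks. At 5 weeks every r was above 0.1, but the groups were judged too small for this to show pairing. This pairing comes from the data, since no source ties a number to a rat across groups.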

Additional observations from a re-analysis of the deposited data

How the results depend on the processing

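For the 4 genes, 80 values were recomputed under 1288 alternatives, of which 1238 kept their direction and side of the threshold, 11 lost a call, 24 gained one and 15 changed sign; a further 96 sign changes, in which both values were uncalled and within 1 SE of 0, are counted as kept. RLE factors, both other filters on low counts and, apart from the value below, fits of only the groups compared changed no call or direction in this sense. The cause was not tested for the changes that follow.

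With the replicate block, edgeR called Hmox1 (0.76) and Nqo1 (0.53) between 3 weeks and 1 week. For priming it called Hmox1 (-1.07), Nqo1 (-0.83) and Gclm (0.45). The block added Nqo1 between 5 weeks and 1 week (0.48) and changed no other call of a member. The numbers were taken to pair libraries at 1 week only, the 5-week groups being judged too small, so values with 3 or 5 weeks rest on shared numbers. DESeq2 called Hmox1 for priming (-1.21) and for replicate 2 (0.54) and 3 (-0.79) against 1. For priming, DESeq2 with the block called Hmox1 (-1.07), Nqo1 (-0.83) and Gclm (0.44), against 2631 of 14034 genes. Between 5 weeks and 1 week it added Nqo1 (0.47), against 6192 genes. Between 3 weeks and 1 week it called Hmox1 (0.74), Nqo1 (0.52) and Gclc (-0.21). It called Hmox1 in 5w2 against 5w100 (-1.13) and 3w100→2w2 against 5w2 (1.11).

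Between 5 weeks and 1 week, the call of Hmox1 was lost on only the groups compared (1.01, adjusted p = 0.0505, edgeR), with paired libraries summed (1.01), without all libraries numbered 2 (1.04, adjusted p = 0.0795, edgeR) and without the stiff-primed pair numbered 2 at 5 weeks (0.60). Without all libraries numbered 2, Gclc lost its call (-0.28), Gclm gained one (0.54, adjusted p = 0.0229, edgeR) and Nqo1 in 5w100 against 3w100 was -0.25. Without the stiff-primed pair numbered 2, Nqo1 changed sign in 5w2 against 5w100 (0.27), 5w100 against 3w100 (-0.60), priming (0.21), 3w2→2w100 against 5w100 (0.15), 3w100→2w2 against 5w2 (-0.26) and the interaction of 5 weeks with 1 week (0.24).

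With single libraries left out, Nqo1 ranged from -1.64 to 0.27 in 5w2 against 5w100, -0.60 to 1.32 in 5w100 against 3w100, -0.56 to 0.69 for the current surface, -0.26 to 1.65 in 3w100→2w2 against 5w2, -1.76 to 0.15 in 3w2→2w100 against 5w100, -1.24 to 1.26 in 3w100→2w2 against 5w100 -1.38 to -0.42 for priming and -1.68 to 0.24 for the interaction. The values nearest 0 or past it for priming and for the switched or kept stiff-primed groups came without replicate 2 of 5w100 or of 3w100→2w2. Hmox1 ranged from -1.46 to -0.79 for priming (called without replicate 1 of 5w100, adjusted p = 0.0479, edgeR), -1.76 to -0.45 in 5w2 against 5w100, -1.68 to -0.36 in 3w2→2w100 against 5w100, 0.42 to 1.75 in 3w100→2w2 against 5w2, -0.83 to 0.79 in 3w100→2w2 against 5w100 and 0.81 to 1.22 between 5 weeks and 1 week. Gclc ranged from -0.27 to -0.16 between 3 weeks and 1 week, and Gclm from -0.33 to -0.20 for replicate 2 against 1, where it was called without replicate 1 (0.0463) or replicate 2 (0.0373) of 1w2 (adjusted p, edgeR).

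Counts of genes called also moved. For priming, 1369 genes became 2297 with the block, 2631 with DESeq2 and the block, 194 on only the groups compared, 11 with summed pairs, 457 with summed pairs and the block, 124 without the stiff-primed pair numbered 2 and 0 without all libraries numbered 2. For 5w2 against 5w100, 37 became 498 with the block, 592 with DESeq2 and 0 on only the groups compared. For 3 weeks against 1 week, 2929 became 1681 without libraries numbered 2, and for replicate 3 against 1, 278 became 652 with DESeq2. With 1 library left out, the count was 393 to 2164 for priming. For 5w2 against 5w100 it was 313 without replicate 1 of 5w100 and 0 without each of the others, for 3w2→2w100 against 5w100 (8 genes) 193 without replicate 1 of 5w100 and 0 without each other, and for 3w100→2w2 against 5w2 (25 genes) 76 without replicate 1 of 3w100→2w2 and 0 without each other. For replicate 2 against 1 (1306 genes) it fell to between 655 and 786 without any 1 of the 8 libraries at 5 weeks, and for replicate 3 against 1 to as few as 63 without replicate 3 of 1w2. For 5 weeks against 3 weeks (4 genes) it ranged from 0 to 163, the latter without replicate 2 of 5w100. Hmox1 and Nqo1 had at least 1971 counts in each library, so their SEs reflect the spread between libraries more than depth.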

Other observations

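The count ratio of Nqo1 to Hmox1 within a library, which needs no scaling between libraries, ranged over groups from a mean of 1.11 ± 0.32 (SD, n = 2) in 5w100 and 1.12 ± 0.31 (n = 2) in 3w100→2w2 to 1.57 ± 0.51 (n = 3) in 1w100 and 1.90 ± 0.80 (n = 3) in 1w2, and the libraries of these groups overlapped. It compares counts of genes of different length and was looked at after the values were seen, so no test is given.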
